A study of Mus musculus with 9 samples.

Results

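Genes of oxidative phosphorylation were compared across 3 mouse cell types. These were cells sorted as very small embryonic-like stem cells (VSEL), cells sorted as haematopoietic stem cells (HSC), and ESC-D3, an embryonic stem cell line (ESC). Members were all genes whose symbols start with Nduf, Uqcr, Sdha to Sdhd, Cox4 to Cox8 or Atp5, plus Cyc1 and Cycs. The symbol rule, which used no measured value, took 190 probe sets of 96 genes among the 18193 genes on the array, and 54 members had several probe sets. For each gene the brightest probe set by its mean over the 9 arrays was used, and 10 probe sets annotated to several genes were left out. By the protein each symbol names, 36 members belong to complex I, 4 to complex II, 9 to complex III, 17 to complex IV and 17 to complex V. A further 8 are assembly factors of complex I (Ndufaf genes), 4 are assembly factors of complex II (Sdhaf genes), and Cycs is cytochrome c. Ndufa4 and Ndufa4l2 were kept with complex I by their symbols, although the Ndufa4 protein is now assigned to complex IV. Cox7a2l, a factor that joins complexes III and IV, was counted with complex IV.

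VSEL and HSC were sorted as Sca-1+Lin-CD45- and Sca-1+Lin-CD45+ cells from bone marrow of C57BL/6 mice aged 4 weeks, with no treatment named in the labels. ESC-D3 is a line from the 129S2/SvPas strain, grown on 0.1% gelatin in medium with leukaemia inhibitory factor at 10 ng/ml. Strain, source and culture therefore differ together with cell type between ESC and the marrow groups and cannot be told apart from it. Each library came from 20 cells lysed in a plate well, whose cDNA was amplified by PCR from a T7 primer before labelling. The labels do not state if libraries within a group have separate mice or dishes behind them, and the p-values therefore reflect library-to-library spread alone, possibly technical.

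Oxidative phosphorylation passes electrons from NADH through complex I, or from succinate through complex II, to ubiquinone, then through complex III and cytochrome c to complex IV, where oxygen is reduced. Complexes I, III and IV pump protons across the inner mitochondrial membrane, and complex V, the ATP synthase, uses their return to make ATP. All members are encoded in the nucleus, while some core subunits of complexes I, III, IV and V are encoded by mitochondrial DNA and are not among them. Adult blood stem cells and pluripotent cells are known to rely more on glycolysis than most differentiated cells do.

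Values are log2 RMA values, and values that follow each other are in the order of the libraries: VSEL 1 and VSEL 2+3, HSC 1, 2 and 3, and ESC 1, 2 and 3. VSEL 2+3 is the mean of VSEL arrays 2 and 3, which correlated at r = 0.989 over probe sets against 0.831 to 0.957 for all other pairs within a group and were counted as 1 library, which leaves 2 VSEL, 3 HSC and 3 ESC libraries. Differences came from a limma fit over all genes and the 8 libraries, and calls needed an adjusted p (Benjamini-Hochberg over all genes of a comparison) under 0.05. The VSEL arrays had a narrower range: their upper quartile was 6.63 to 6.69, against 7.12 to 7.18 on the others. As a check of the labelled cells, the median of 10 pluripotency markers was highest in ESC (12.1 to 12.2), lower in VSEL (9.44 and 9.37) and lowest in HSC (3.93 to 4.16). The median of 10 pan-leukocyte markers was 5.12 in VSEL 1 but 12.8 in VSEL 2+3, a library sorted as CD45-negative, against 4.58 to 5.10 in ESC and 13.1 to 13.4 in HSC. The median of 9 T and NK cell markers was 11.9 to 12.7 in HSC, 5.36 and 5.89 in VSEL and 4.64 to 5.14 in ESC, and the 7 measured erythroid markers had medians of 7.55 to 9.03 in HSC, 10.9 and 11.6 in VSEL, and 4.59 to 4.83 in ESC. Granulocyte and monocyte markers were also high in the marrow groups, with medians of 13.5 to 13.8 for HSC and 12.7 and 14.5 for VSEL, against 4.78 to 5.16 for ESC. The difference between 3' and 5' probe sets of the array's RNA quality control genes was smallest in ESC, at 0.340 to 0.446, and overlapped between VSEL (0.709 to 1.07) and HSC (0.734 to 0.962). All of these measures stood apart between ESC and both marrow groups, with the pan-leukocyte value of VSEL 1 just above the ESC range. Between VSEL and HSC the granulocyte and monocyte medians and the RNA measure overlapped, and the other marker medians did not. Their part in the results was not tested. With pools of 20 cells, fewer cells of a type and less RNA per cell cannot be told apart.

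The sequences just upstream of 4 members that were called lower in VSEL than in ESC are shown because promoters of this gene class are known to carry sites for NRF1 and for ETS factors such as GABP. Each run is the 250 bases before the gene's start in RefSeq's GRCm38.p6 table, 5' to 3' on the gene's strand, with a motif match in capitals and no capitals where none was found. Ndufa9 lies on the minus strand at chr6:126849145-126849394, Uqcrh on the minus strand at chr4:116075071-116075320, Ndufaf4 on the plus strand at chr4:24897833-24898082 and Atp5g2 on the minus strand at chr15:102671048-102671297.
Ndufa9: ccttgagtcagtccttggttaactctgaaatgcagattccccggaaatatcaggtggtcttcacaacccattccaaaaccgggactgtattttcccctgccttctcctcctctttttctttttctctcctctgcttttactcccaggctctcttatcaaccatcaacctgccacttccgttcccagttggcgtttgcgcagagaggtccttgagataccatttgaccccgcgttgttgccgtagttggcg
Uqcrh: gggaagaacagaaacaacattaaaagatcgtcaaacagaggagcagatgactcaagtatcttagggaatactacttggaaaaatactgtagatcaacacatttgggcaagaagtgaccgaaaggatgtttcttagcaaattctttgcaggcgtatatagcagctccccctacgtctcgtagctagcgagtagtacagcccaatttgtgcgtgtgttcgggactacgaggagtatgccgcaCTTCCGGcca
Ndufaf4: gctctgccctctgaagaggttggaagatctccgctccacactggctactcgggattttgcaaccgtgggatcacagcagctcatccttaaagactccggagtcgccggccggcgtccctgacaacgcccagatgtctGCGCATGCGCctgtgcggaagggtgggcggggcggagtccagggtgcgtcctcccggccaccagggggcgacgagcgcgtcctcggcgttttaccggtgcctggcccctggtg
Atp5g2: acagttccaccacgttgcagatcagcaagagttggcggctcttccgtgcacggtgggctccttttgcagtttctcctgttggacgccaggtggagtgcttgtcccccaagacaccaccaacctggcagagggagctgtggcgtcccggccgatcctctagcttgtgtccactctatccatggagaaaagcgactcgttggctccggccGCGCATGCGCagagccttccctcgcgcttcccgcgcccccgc
Capitals mark the ETS motif CCGGAAG, read on the other strand, in Uqcrh, where it ends 3 bases before the start. In Ndufaf4 and Atp5g2 they mark the NRF1 motif (GCGC, then any base and T, then GCGC), which ends 103 and 32 bases before the start. Ndufa9, the member with the largest called difference between VSEL and ESC, held neither motif in this window. Of the 13 members called lower in VSEL than in ESC, only Uqcrh, Ndufaf4 and Atp5g2 had a match found, and all of these are shown. The runs shown therefore hold a larger share of matches than the 13 members do. On both strands, the NRF1 motif was in 13 of the 84 promoters (15.5%) of the 79 members that had an entry and in 3.74% of all 32851 promoters of the same length. The ETS motif was in 16 of 84 (19.0%), against 6.91% of all. The YY1 motif AAGATGGC was in 1 of 84 (1.19%), against 1.56% of all. The ETS and YY1 patterns can overlap in the AAG that ends the former and opens the latter. A match is a description of letters and not a measured binding site.

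The 3 members that serve as a check of the class, Ndufa9, Sdhb and Cyc1, were present in all libraries and differed between the cell types in different ways. Ndufa9, an accessory subunit of complex I in its matrix arm, read 8.63 and 8.85 in VSEL, 10.62, 9.97 and 10.56 in HSC, and 11.57, 11.69 and 11.60 in ESC. The 3 groups did not overlap, with VSEL lowest and ESC highest. Its difference was -1.64 ± 0.23 between VSEL and HSC (SE, adjusted p = 0.0063), -2.88 ± 0.23 between VSEL and ESC (adjusted p = 0.00121) and -1.24 ± 0.20 between HSC and ESC (adjusted p = 0.00822). Sdhb, the iron-sulfur subunit of complex II, read 11.14 and 10.40 in VSEL, 12.27, 12.27 and 12.47 in HSC, and 12.86, 12.62 and 12.38 in ESC. Both VSEL libraries were below every other library, while HSC and ESC overlapped. Sdhb was 2.95-fold lower in VSEL than in HSC (log2 -1.56 ± 0.26, adjusted p = 0.0128) and 3.6-fold lower than in ESC (adjusted p = 0.00738). Cyc1, the cytochrome c1 haem protein of complex III, read 12.38 and 11.73 in VSEL, 11.90, 11.61 and 11.63 in HSC, and 13.31, 13.32 and 13.54 in ESC. Here ESC stood above all other libraries, and VSEL and HSC overlapped. Cyc1 was 3.2-fold lower in HSC than in ESC (log2 -1.68 ± 0.20, adjusted p = 0.00234) and 2.52-fold lower in VSEL than in ESC (log2 -1.33 ± 0.23, adjusted p = 0.0137), and the second call was lost with cyclic loess normalization (adjusted p = 0.081). The calls of Ndufa9, of Sdhb and of Cyc1 in HSC against ESC passed under all 19 alternative settings.

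How the cells sorted as HSC compare with the embryonic line was read from the libraries labelled HSC and ESC, 3 on each side. The HSC libraries also held T and NK cell markers, with 9 of 9 above background in each, and granulocyte and monocyte markers, with 10 of 10 in each. Of the 96 members, 17 were called lower in HSC (17.7%) and 0 higher, where 9.93% of all genes were called lower and 6.99% higher. At an unadjusted p under 0.05 in limma, 2 members were higher and 29 lower. The share of all genes at that threshold was not counted, so this split is not read as a result about the members. Members are brighter than most genes: among the 9096 genes with a mean above the median, 16 of 89 members were called lower, against 15.3% of all such genes, so the share of members called lower was close to that background, while 10.7% of such genes and none of these members were called higher. All 3 HSC values lay below all 3 ESC values for 46 members (47.9%), against 21.5% of all genes. They lay above them for 4 members (4.17%), Cox8a, Ndufa1, Ndufb11 and Ndufb4, against 16.5% of all genes. Of the 89 brighter members, 42 lay below (47.2%) and 3 above (3.37%), against 29.4% and 23.4% of the brighter genes. The median difference over members was -0.52, against -0.04 over all genes and -0.12 over the brighter genes, and it was -0.23 with cyclic loess and -0.55 with arrays centred on cytosolic ribosomal proteins.

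**Figure D1:**
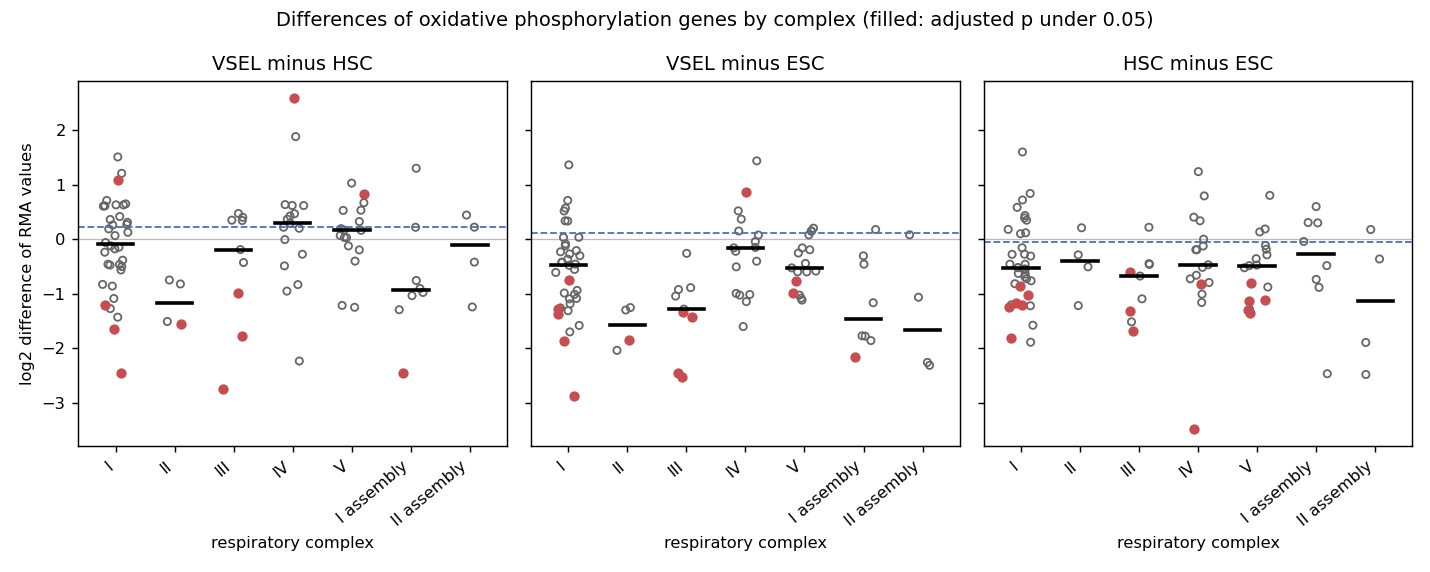
Log2 differences of the oxidative phosphorylation genes other than Cycs in the 3 comparisons, by respiratory complex; each point is a gene, filled where its adjusted p was under 0.05, black bars are medians of a complex and the dashed line is the median of all genes. In HSC against ESC all 5 complex medians lie below the line, and of the 5 complexes II and III are furthest below it in VSEL against ESC. The median of the brighter genes, not drawn, was -0.12 in HSC against ESC, -0.50 in VSEL against ESC and -0.19 in VSEL against HSC.

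Cytochrome c and parts of ATP synthase were among the members called lower in HSC. Cycs, the soluble cytochrome c, read 12.34 and 12.62 in VSEL, 12.08, 11.68 and 12.17 in HSC, and 12.81, 13.00 and 12.55 in ESC. Every HSC library was below every ESC library, with a difference of -0.81 ± 0.20 (adjusted p = 0.0381). Atp5b, the catalytic beta subunit of the F1 head, read 13.26 and 12.82 in VSEL, 12.52, 12.41 and 12.61 in HSC, and 13.75, 13.79 and 13.89 in ESC. All HSC values were under the VSEL values, and these were under the ESC values. Atp5b was 2.46-fold lower in HSC than in ESC (log2 -1.30 ± 0.16, adjusted p = 0.00216). Atp5a1, the alpha subunit beside it, read 13.34 and 12.76 in VSEL, 12.49, 12.50 and 12.55 in HSC, and 13.62, 13.68 and 13.64 in ESC. Its groups stood in the same order without overlap, and it was 2.19-fold lower in HSC than in ESC (log2 -1.13 ± 0.17, adjusted p = 0.00575). Atp5o, which links the stalk to the head, differed by -1.11 ± 0.27 (adjusted p = 0.0351).

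The c-ring of ATP synthase, the rotor that protons turn, has 3 genes for the same mature protein. Atp5g1 read 12.51 and 12.54 in VSEL, 11.63, 11.50 and 11.97 in HSC, and 13.21, 13.19 and 12.74 in ESC. Its groups did not overlap, with HSC lowest, and the difference between HSC and ESC was -1.35 ± 0.19 (adjusted p = 0.00491). Atp5g2 read 13.10 and 12.63 in VSEL, 13.29, 12.98 and 12.90 in HSC, and 13.84, 13.74 and 13.97 in ESC. ESC was above all other libraries, HSC and VSEL overlapped, and HSC differed from ESC by -0.80 ± 0.18 (adjusted p = 0.0313) and VSEL from ESC by -0.99 ± 0.21 (adjusted p = 0.025). Atp5g3 read 13.70 and 13.90 in VSEL, 13.56, 13.71 and 13.15 in HSC, and 13.86, 14.04 and 13.98 in ESC. It did not pass in any comparison, with a difference of -0.48 ± 0.18 between HSC and ESC (adjusted p = 0.139).

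**Figure D2:**
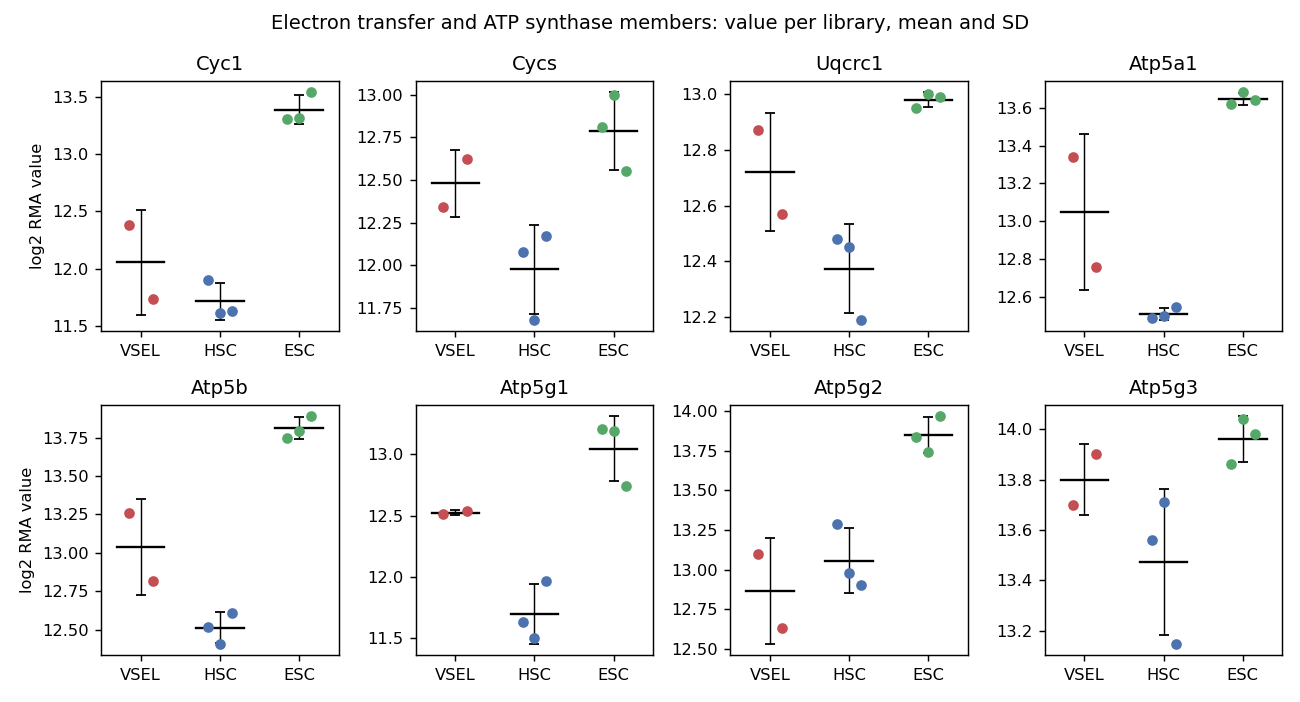
Log2 RMA values of 8 electron transfer and ATP synthase genes by cell type; points are libraries, horizontal bars the group mean and whiskers the SD, with a separate scale for each gene. ESC libraries lie above all HSC libraries in all 8 panels, and VSEL libraries lie between them for Atp5a1, Atp5b, Atp5g1 and Uqcrc1.

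In complex III, Uqcrc1, a core protein, read 12.87 and 12.57 in VSEL, 12.48, 12.45 and 12.19 in HSC, and 12.95, 13.00 and 12.99 in ESC. All HSC values were below all ESC values although the difference was small, at -0.61 ± 0.14 (adjusted p = 0.0337). Uqcrq, a small subunit near the membrane, read 10.49 and 11.05 in VSEL, 10.52, 10.09 and 10.50 in HSC, and 11.55, 12.00 and 11.53 in ESC. HSC lay under ESC by -1.32 ± 0.23 (adjusted p = 0.0109), and HSC and VSEL overlapped. In complex I, Ndufab1, the mitochondrial acyl carrier protein, read 13.38 and 12.91 in VSEL, 12.38, 12.08 and 11.72 in HSC, and 13.12, 13.34 and 13.34 in ESC. HSC was below both other groups, which overlapped, and differed from ESC by -1.20 ± 0.22 (adjusted p = 0.0131). The other complex I members called lower in HSC were accessory subunits or a subunit homologue: Ndufc1 (-1.81 ± 0.47), Ndufa4l2 (-1.17 ± 0.26), Ndufa7 (-1.02 ± 0.16) and Ndufa8 (-0.86 ± 0.22). The 6 core subunits of complex I among the members had a median difference of -0.66 between HSC and ESC, and adjusted p-values of 0.0553 (Ndufs3) or more. In complex IV the calls were Cox4i1 (-0.83 ± 0.19, adjusted p = 0.0281), the widely expressed isoform of subunit 4, and Cox7a1, a muscle and heart isoform described with the other isoforms. In complex II the smallest adjusted p was 0.308, for Sdhc.

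Of these 17 calls in HSC against ESC, 7 held when any 1 of the 8 libraries was left out: Atp5a1, Atp5b, Atp5g1, Cyc1, Ndufa7, Ndufa9 and Uqcrq. The count fell to 11 without HSC 1, 8 without HSC 2, 9 without HSC 3, 11 without ESC 1, 8 without ESC 2 and 9 without ESC 3. Of all genes, 7.36% to 8.15% were called lower in these fits. Adjusted p-values of the lost calls ranged from 0.0503 to 0.127 and no difference changed sign. Atp5o, Cycs, Ndufa8, Ndufc1, Uqcrc1, Cox4i1, Cox7a1, Ndufa4l2 and Atp5g2 lost their calls without 3 or more of these libraries, and Ndufab1 without ESC 2. Of the 9 called members with several probe sets, 6 had the same sign in all, and Cycs, Ndufab1 and Uqcrq did not. With only probe sets without a suffix, the Atp5g1 call was lost (adjusted p = 0.738) and so was that of Uqcrq (adjusted p = 0.239).

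VSEL against ESC asks how marrow cells named for their likeness to embryonic cells compare with an embryonic line in culture. Here 13 members were called lower in VSEL (13.5%) and 1 higher, Cox8a, where 10.5% of all genes were called lower and 6.38% higher. Among the brighter genes the members' share called lower was 14.6%, against 19.0% of all such genes, and 6.82% of these were called higher. Both VSEL values lay below all ESC values for 33 members (34.4%, against 22.6% of all genes and 38.1% of the brighter ones) and above them for 6 (6.25%, against 33.0% and 17.9%). The median difference was -0.59 over members, 0.11 over all genes and -0.50 over the brighter genes. Cyclic loess brought the members' median to -0.08 and the count called lower to 3, where 5.94% of all genes were called lower. Of the 89 brighter members, 33 had both VSEL values below all ESC values (37.1%, against 38.1% of the brighter genes). In the same set 1 was called higher (1.12%) and 5 had both VSEL values above all ESC values (5.62%, against 17.9%). Beside genes with a mean above the median, the share of members called lower was thus not larger, and the share on the higher side was smaller. These genes are not matched to the members in brightness. The median member value was 11.08 to 12.01 per array, above the upper quartiles of 6.63 to 7.18.

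The members called lower in VSEL than in HSC numbered 8 (8.33%, where 9.18% of all genes were called lower). All 8 were among the 89 brighter members (8.99%, against 15.2% of the brighter genes). VSEL against HSC and VSEL against ESC use the same VSEL libraries, so the values are given side by side and not as independent results. Uqcrh, the acidic hinge protein that helps cytochrome c dock on complex III, read 8.48 and 8.33 in VSEL, 10.87, 10.50 and 12.10 in HSC, and 10.78, 10.90 and 11.13 in ESC. Both VSEL libraries were below all others, and HSC and ESC overlapped. Uqcrh was 6.73-fold lower in VSEL than in HSC (log2 -2.75 ± 0.45, adjusted p = 0.0122) and 5.78-fold lower than in ESC (log2 -2.53 ± 0.45, adjusted p = 0.0157). Uqcrb, a subunit that binds near the ubiquinone site, read 10.40 and 10.42 in VSEL, 12.07, 11.76 and 12.74 in HSC, and 12.93, 13.45 and 12.21 in ESC. VSEL was again below every other library, by -1.77 ± 0.43 against HSC (adjusted p = 0.0377) and -2.45 ± 0.43 against ESC (adjusted p = 0.0142). Uqcr10, a small membrane subunit, read 10.36 and 10.55 in VSEL, 11.21, 11.46 and 11.65 in HSC, and 11.87, 11.79 and 12.01 in ESC. The 3 groups did not overlap and VSEL was lowest, with differences of -0.98 ± 0.18 (adjusted p = 0.0166) and -1.43 ± 0.18 (adjusted p = 0.00487).

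Among accessory subunits of complex I, Ndufb3 read 7.58 and 7.82 in VSEL, 9.56, 10.56 and 10.32 in HSC, and 9.70, 9.48 and 9.51 in ESC. VSEL was below all others, and HSC and ESC overlapped. Ndufb3 was 5.45-fold lower in VSEL than in HSC (log2 -2.45 ± 0.31, adjusted p = 0.00437) and 3.63-fold lower than in ESC (adjusted p = 0.0119). Ndufa2 read 11.10 and 10.23 in VSEL, 12.11, 11.55 and 11.96 in HSC, and 12.04, 12.06 and 11.99 in ESC. The VSEL libraries were below all others but apart from each other, and the differences were -1.21 ± 0.29 against HSC (adjusted p = 0.0382) and -1.37 ± 0.29 against ESC (adjusted p = 0.0267). Ndufaf4, an assembly factor of complex I, read 7.31 and 6.94 in VSEL, 9.02, 10.47 and 9.27 in HSC, and 9.26, 9.10 and 9.48 in ESC. VSEL was lowest, and HSC spread over a wider range than ESC and overlapped it. Ndufaf4 differed by -2.46 ± 0.43 from HSC (adjusted p = 0.015) and by -2.15 ± 0.43 from ESC (adjusted p = 0.0225). The other members called lower in VSEL than in ESC were Ndufb5 (-1.29 ± 0.33), Atp5b (-0.77 ± 0.17) and Ndufa7 (-0.76 ± 0.18).

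**Figure D3:**
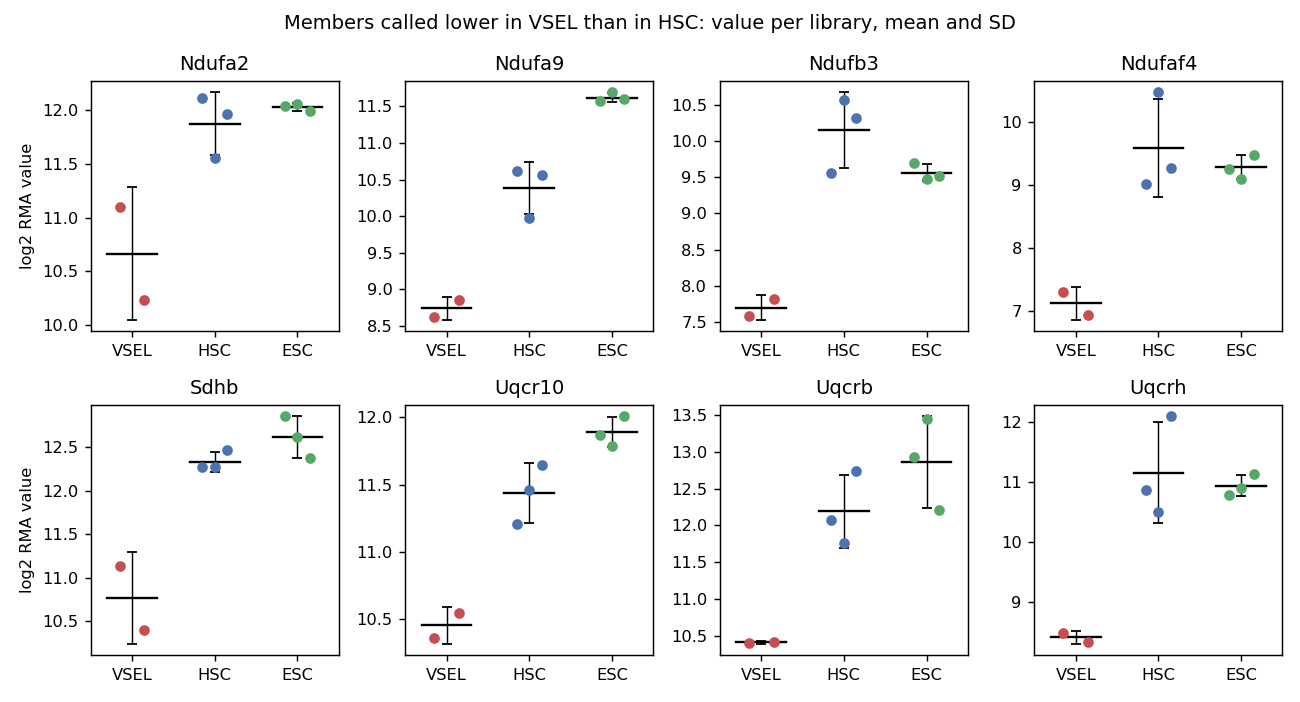
Log2 RMA values of the 8 members called lower in VSEL than in HSC, by cell type; points are libraries, horizontal bars the group mean and whiskers the SD, with a separate scale for each gene. Both VSEL points lie below all HSC and ESC points in every panel.

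Of the 14 calls in VSEL against ESC, 6 held when any 1 library was left out: Cyc1, Ndufa9, Ndufb3, Sdhb, Uqcr10 and Uqcrb. The count called lower was 7 without ESC 1 and 7 without ESC 2, where 7.32% and 6.91% of all genes were called lower. The count called higher was 0 without ESC 1 or ESC 2, where 2.66% and 2.48% of all genes were called higher. Cox8a lost its call without VSEL 1, VSEL 2+3, ESC 1 or ESC 2. Atp5b, Atp5g2, Ndufa2 and Ndufaf4 lost theirs without VSEL 2+3 or any of the ESC libraries, Atp5b also without HSC 3, and Uqcrh without VSEL 2+3. Ndufb5 lost its call without VSEL 1, HSC 2, HSC 3 or any ESC library, and Ndufa7 without either VSEL library, HSC 1, HSC 2 or any ESC library. The lost calls had adjusted p-values from 0.0511 to 0.146. Of the 6, Ndufa9 and Sdhb also kept their calls under every other alternative. Cyclic loess ended the calls of Cyc1 (adjusted p = 0.081), Ndufb3 (adjusted p = 0.0883) and Uqcr10 (adjusted p = 0.0548), as well as that of Uqcrh (adjusted p = 0.0551). Repeated quantile normalization ended that of Ndufb3 (adjusted p = 0.0719), and array weights those of Uqcrb (adjusted p = 0.053) and Uqcrh (adjusted p = 0.0575). The Uqcr10 call was also lost with the mean over its probe sets (-1.05, adjusted p = 0.208) and with probe sets without a suffix (-1.10, adjusted p = 0.483), so among its probe sets it rested on the brightest.

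In VSEL against HSC, which were sorted from the same tissue and differ by the CD45 gate, 8 members were called lower (8.33%) and 3 higher (3.12%), where 9.18% of all genes were called lower and 8.01% higher. The shares were no larger than those of all genes. Of the 89 brighter members, 8.99% were lower and 3.37% higher, also no larger than the 15.2% and 8.75% of brighter genes. Both VSEL values lay above all HSC values for 21 members (21.9%), against 37.8% of all genes and 21.8% of brighter ones, and below them for 16 (16.7%), against 17.3% and 28.4%. The median difference was 0.03 over members and 0.22 over all genes, and cyclic loess and ribosomal centring gave 0.25 against 0.06 and 0.30 against 0.49. The 8 lower members are those whose values are given above, and include 3 small subunits of complex III and the iron-sulfur subunit of complex II. The 3 higher members were Ndufab1 (1.08 ± 0.25, adjusted p = 0.033), Atp5g1 (0.82 ± 0.22, adjusted p = 0.0492) and Cox6b2 (2.60 ± 0.59, adjusted p = 0.0319). Only Ndufa9, Ndufb3, Sdhb and Uqcrh kept their calls when any 1 of the 8 libraries was left out. The count called higher was 0 without HSC 2 or ESC 1 and 1 without HSC 3, ESC 2 or ESC 3. Of all genes, 3.74% to 5.12% were called higher in these fits. Atp5g1 lost its call without any library but ESC 3, Uqcrb without any but ESC 2 and ESC 3, and Ndufa2 without VSEL 2+3, HSC 1, HSC 3 or any ESC library. Ndufab1 lost it without VSEL 1, HSC 2, HSC 3 or any ESC library, Cox6b2 without either VSEL library, HSC 2, ESC 1 or ESC 3, Uqcr10 without VSEL 1 and Ndufaf4 without VSEL 2+3. The adjusted p-values of these lost calls ran from 0.0502 to 0.117. Of the 6 called members with several probe sets, Ndufaf4 and Uqcr10 had a probe set of the opposite sign. The second Ndufaf4 probe set was higher in VSEL than in HSC by 2.30 ± 1.58 (SE, adjusted p = 0.355), and 1 of the others of Uqcr10 differed by 0.0067 ± 0.54. With the mean over probe sets Uqcr10 was at -0.47 (adjusted p = 0.545).

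Compared by complex, the medians were lower in HSC than in ESC for all 5, beside -0.04 for all genes and -0.12 for the brighter genes. They were -0.53 for complex I, -0.40 for complex II, -0.67 for complex III, -0.47 for complex IV and -0.48 for complex V. All 5 kept that sign under the 19 alternatives, with values nearer to 0 under cyclic loess. In VSEL against ESC the medians were -0.47, -1.57, -1.28, -0.16 and -0.52 for complexes I to V. All genes stood at 0.11 and the brighter genes at -0.50, so complexes I and V were near the brighter genes and IV was above them. Cyclic loess turned those of complex I (0.12) and complex V (0.05) above 0, and ribosomal centring did so for complex IV (0.08), so only complexes II and III stayed below 0 under all scalings there. Complex IV was also above 0 without VSEL 2+3 (0.02). In VSEL against HSC the complex medians were -0.09, -1.16, -0.19, 0.29 and 0.16, beside 0.22 for all genes and -0.19 for the brighter genes. Complex I and complex III had no stable sign there: cyclic loess gave 0.18 and 0.15, and leaving out VSEL 1 gave 0.31 and 0.02, while complex V was -0.03 without HSC 2. Complex II holds only 4 genes, and by their brightest probe sets all 4 were lower in VSEL than in HSC and ESC on average, but Sdhb alone passed. The median of complex II against HSC was -1.77 without VSEL 1 and -0.61 without VSEL 2+3. Sdha in VSEL 1 (11.56) was above all HSC libraries, and the second Sdhc probe set differed from HSC by 0.23 ± 0.31 (SE). Within complex III, the 5 small subunits had a median of -0.98 against HSC and the 4 redox and core subunits 0.08.

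Several subunits of complex IV exist as a widely expressed form and a form restricted to muscle, testis or lung, and these were read as pairs without setting the level of 1 probe set against that of another. Cox6b2, the testis form of subunit 6b, read 11.06 and 11.03 in VSEL, 7.41, 8.58 and 9.36 in HSC, and 9.92, 8.97 and 9.93 in ESC. Both VSEL values were above all others, HSC and ESC overlapped, and the difference from HSC was 6.05-fold (log2 2.60 ± 0.59). Its partner Cox6b1 read 12.92 and 10.06 in VSEL, 11.94, 12.45 and 12.94 in HSC, and 12.67, 12.83 and 12.40 in ESC. The VSEL libraries enclosed nearly the whole range of the other groups, and no comparison passed. Cox8a, the widely expressed form of subunit 8, read 13.64 and 13.79 in VSEL, 13.23, 13.13 and 13.39 in HSC, and 12.56, 12.96 and 13.01 in ESC. Here the groups stood in the order VSEL, HSC, ESC from high to low without overlap, and the difference between VSEL and ESC was 0.87 ± 0.19 (adjusted p = 0.0271). Cox8b, the muscle form, and Cox8c, the testis form, passed in no comparison by their brightest probe sets, with differences between VSEL and ESC of -0.04 ± 0.31 and -0.16 ± 0.29. The second Cox8c probe set was higher in VSEL than in ESC by 1.04 ± 0.18 (SE, adjusted p = 0.0176), so the Cox8c probe sets disagreed.

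Cox7a1, the muscle and heart form of subunit 7a, read 5.32 and 6.06 in VSEL, 4.64, 3.35 and 3.43 in HSC, and 5.78, 8.34 and 7.76 in ESC. HSC values were below those of both other groups. The 95th percentile of 39 olfactory receptor genes served as a background level. Both VSEL values were under it (6.31 to 6.44 in VSEL), so the order of VSEL and HSC is not read as a difference. HSC values were also under that level, which was 5.57 to 5.85 in HSC. Cox7a1 was therefore at least 3.03-fold lower in HSC than in ESC, reading HSC at that background level (measured means 3.81 and 7.29, adjusted p = 0.0208), and the call was lost without HSC 2, HSC 3, ESC 2 or ESC 3 (adjusted p up to 0.0721). Its partner Cox7a2 read 12.58 and 11.38 in VSEL, 11.84, 11.71 and 12.41 in HSC, and 13.08, 13.03 and 12.86 in ESC. ESC was above all other libraries, but the difference from HSC, -1.01 ± 0.34, did not pass (adjusted p = 0.11). Cox6a1, the wide form of subunit 6a, read 14.58 and 14.75 in VSEL, 14.18, 14.37 and 14.33 in HSC, and 14.31, 14.35 and 14.22 in ESC. VSEL was above all others, by 0.37 ± 0.14 against HSC (adjusted p = 0.116), and the muscle form Cox6a2 differed by -0.27 ± 0.47, with HSC 1 apart at 9.01. Cox4i2, the lung form of subunit 4, and Cox7b2, a testis form, lay near or under background in all groups, at 5.28 to 6.28 and 3.09 to 3.38.

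Ndufa4l2, a homologue of Ndufa4 that is known to respond to low oxygen, read 7.59 and 7.76 in VSEL, 6.83, 6.97 and 7.09 in HSC, and 7.56, 8.28 and 8.55 in ESC. HSC lay below all VSEL and ESC libraries, which overlapped each other, and the HSC difference from ESC was -1.17 ± 0.26 (adjusted p = 0.0285). This call was lost without any HSC library, ESC 2 or ESC 3 (adjusted p up to 0.0956). Ndufa4 itself read 12.66 and 10.99 in VSEL, 11.66, 11.83 and 11.79 in HSC, and 12.58, 12.41 and 11.93 in ESC. It passed in no comparison and differed by -0.55 ± 0.43 between HSC and ESC.

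**Figure D4:**
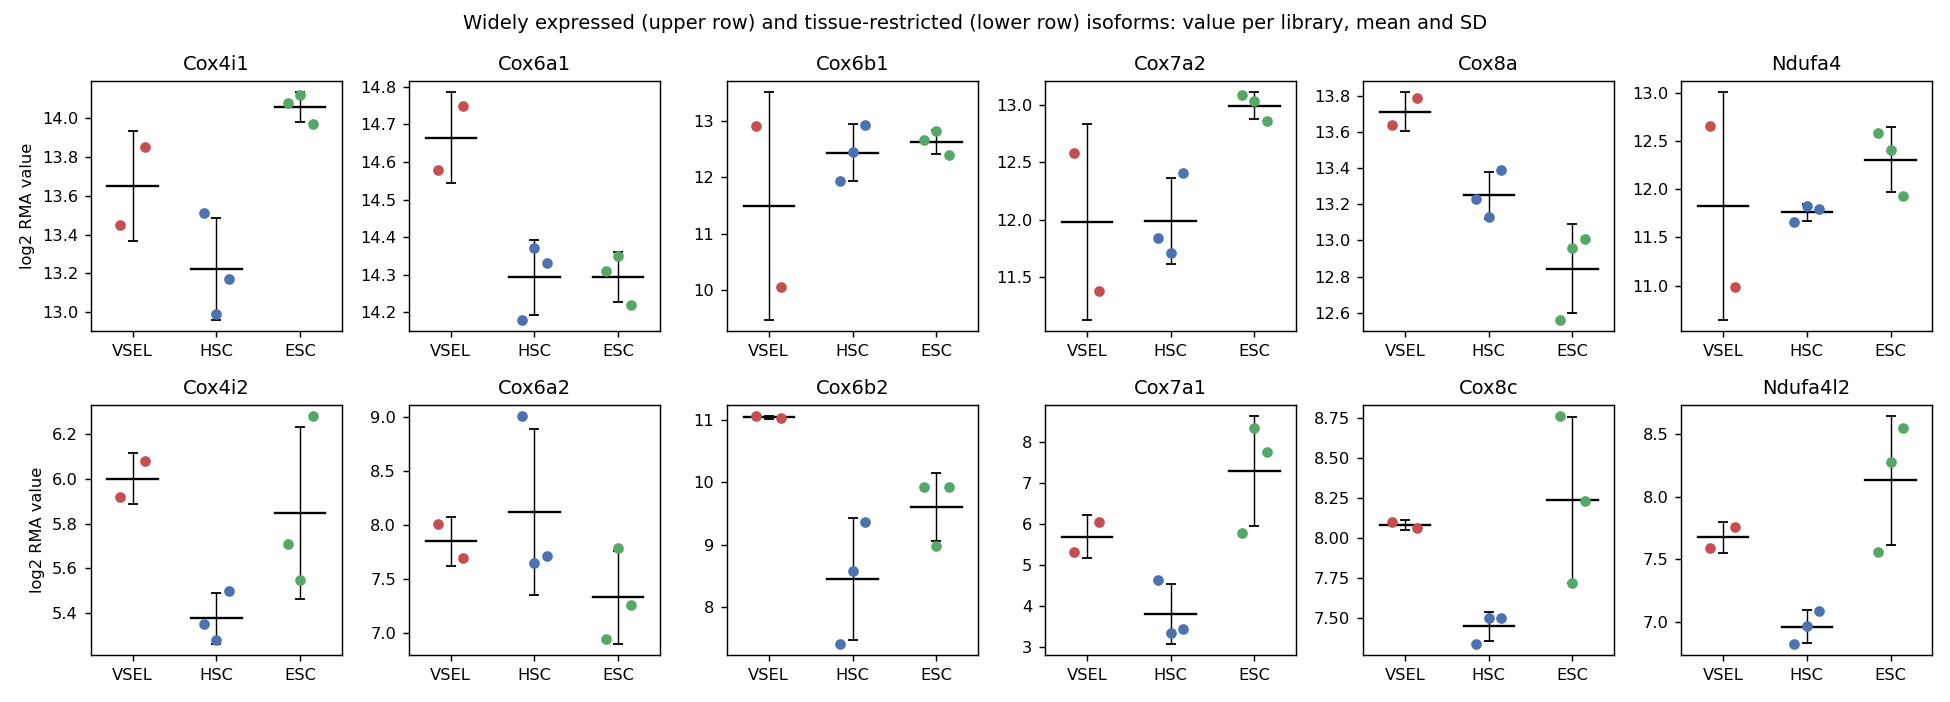
Log2 RMA values of widely expressed genes (upper row) and tissue-restricted isoforms or homologues (lower row) by cell type; points are libraries, horizontal bars the group mean and whiskers the SD, each panel with its own scale. Both VSEL values of Cox6b2, 11.06 and 11.03, are above all others, and the HSC values of Cox7a1 are at most 4.64.

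The group means hide the spread between the VSEL libraries, which was not particular to these genes. VSEL 1 and VSEL 2+3 differed by more than 2 log2 units for 22 of the 96 members (22.9%), 9 of them higher in VSEL 1 and 13 higher in VSEL 2+3. The share was 14.2% over all genes and 26.0% over the genes with a mean above the median, so the members' share lay between these. Pairs of HSC or ESC libraries differed that much for 2 to 6 members. By complex, 11 of 36 members of complex I, 2 of 4 of complex II, 1 of 9 of complex III, 2 of 17 of complex IV, 2 of 17 of complex V and 3 of 8 assembly factors of complex I did so. Median absolute differences were 0.93 in complex I and 0.51 in complex IV.

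Individual members show how far apart these libraries were. Ndufa5, an accessory subunit of complex I, read 7.55 and 11.40 in VSEL, 7.47, 7.90 and 9.44 in HSC, and 9.13, 8.06 and 9.53 in ESC, so VSEL 2+3 was above every other library and VSEL 1 near the lowest. Sdhd, a membrane anchor of complex II, read 7.59 and 10.55 in VSEL, 10.30, 10.67 and 10.76 in HSC, and 10.76, 9.98 and 10.36 in ESC, and here VSEL 1 was below every other library. Sdha, the flavoprotein of the same complex, read 11.56 and 8.72 in VSEL, 10.70, 10.80 and 11.17 in HSC, and 11.30, 11.67 and 11.23 in ESC, and VSEL 2+3 was the low one. Uqcrc2, a core protein of complex III, read 9.35 in VSEL 1 and 12.10 in VSEL 2+3. Atp5md, a small subunit of ATP synthase, read 7.38 and 11.11 in VSEL, 9.01, 8.69 and 9.55 in HSC, and 9.17, 9.78 and 9.37 in ESC, so that the mean of VSEL lay near the others while neither library did. The pan-leukocyte marker medians of 5.12 and 12.8 also separate these libraries, and their part in the members' values was not tested.

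**Figure D5:**
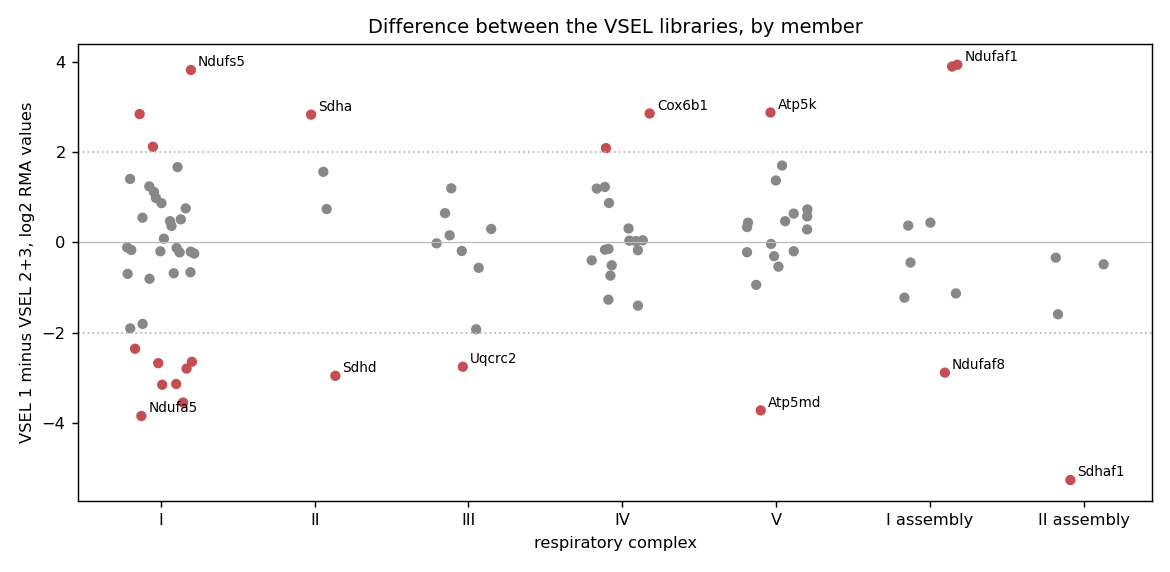
Difference between VSEL 1 and VSEL 2+3 in log2 RMA values for the members other than Cycs by complex; each point is a gene, red where the difference exceeds 2 log2 units in either direction (dotted lines). Red points lie on both sides of 0, and the furthest is Sdhaf1, at -5.27.

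Most members were measured above background. The values of 84 members in VSEL, 86 in HSC and 90 in ESC were above that olfactory receptor background in every library of the group. Those at or under it in some library of all 3 groups were Cox4i2, Cox7b2, Cox7c, Ndufaf6 and Ndufb4. The probe set of Cox7c read 3.46 and 4.86 in VSEL, 7.29, 3.80 and 8.08 in HSC, and 3.67, 8.01 and 3.76 in ESC. High and low values occurred within HSC and within ESC. Most members thus had room to show a difference, and for those near background a difference can be understated. Cycs shows how far the choice of probe set matters: between VSEL and ESC, 1 of its 4 probe sets was called lower (-2.58 ± 0.18, SE, adjusted p = 0.00116) and another higher (0.82 ± 0.17, adjusted p = 0.0296), while the brightest did not pass. Among the called members, Uqcrh, Ndufa2, Ndufab1 and Uqcrq were read from probe sets whose suffix marks that they can match transcripts of several genes. Cox7c and other members without a call were too. Genes of this class have many processed pseudogenes, so their values are uncertain to that extent. In VSEL against HSC a probe set without a suffix was also called for Uqcrh (-2.36, adjusted p = 0.00969) and Ndufab1 (1.76, adjusted p = 0.0149). Ndufa2 had no second probe set, and the Uqcrq call in HSC against ESC was lost with such probe sets.

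Genes that act on or beside the complexes were counted in the same fit. Their counts stand beside the shares called lower over all genes and over the brighter genes: 9.18% and 15.2% in VSEL against HSC, 10.5% and 19.0% in VSEL against ESC, and 9.93% and 15.3% in HSC against ESC. The shares of all genes called higher were 8.01%, 6.38% and 6.99% in the same order. Of 34 assembly factors outside the symbol rule, 7 were called lower (20.6%) and 2 higher in VSEL than in HSC, 6 lower (17.6%) in VSEL than in ESC, and 6 lower (17.6%) and 1 higher in HSC than in ESC. The lower shares against ESC were near those of the brighter genes. Cox20, a chaperone of complex IV assembly, read 9.16 and 6.17 in VSEL, 11.98, 12.25 and 11.89 in HSC, and 8.55, 9.11 and 9.25 in ESC. HSC stood above both other groups, by 3.07 ± 0.72 over ESC (SE, adjusted p = 0.0318). Coa3, another such factor, read 7.85 and 8.34 in VSEL and 10.56 to 11.03 in ESC, a difference of -2.62 ± 0.22 (adjusted p = 0.00155). Within the rule, the 12 assembly factors had medians of -0.42 in HSC against ESC, -1.47 in VSEL against ESC and -0.83 against HSC, and Ndufaf4 alone was called. 

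Mitochondrial ribosomal proteins, which translate the subunits encoded by mitochondrial DNA, numbered 76. In HSC against ESC 22 were called lower (28.9%), in VSEL against ESC 25 lower (32.9%) and 2 higher, and in VSEL against HSC 8 lower (10.5%) and 4 higher. The first pair of shares was above that of the brighter genes, and the last was near that of all genes. Their medians were -1.10, -1.34 and -0.01, beside -0.52, -0.59 and 0.03 for the oxidative phosphorylation genes. Mrps31 read 6.94, 5.47 and 6.75 in HSC and 10.42 to 10.75 in ESC, a log2 difference of -4.24 ± 0.39 (adjusted p = 0.000682). Of 16 genes of pyruvate dehydrogenase and the TCA cycle, which feed electrons to the chain, 4 were called lower in HSC than in ESC (25%), 6 lower (37.5%) and 1 higher in VSEL than in ESC, and 2 lower (12.5%) and 1 higher in VSEL than in HSC. Idh3a, a subunit of the NAD-dependent isocitrate dehydrogenase, read 12.84 and 12.20 in VSEL, 9.63, 10.95 and 10.19 in HSC and 11.86 to 11.98 in ESC, and VSEL was higher than HSC by 2.26 ± 0.39 (adjusted p = 0.0144). Dld, the shared E3 subunit of these dehydrogenases, read 6.84 and 6.85 in VSEL and 9.21 to 9.34 in ESC (-2.42 ± 0.32, adjusted p = 0.00558).

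Among 11 carriers and coupling proteins, 3 were called lower in HSC than in ESC (27.3%), 1 higher in VSEL than in ESC (9.09%) and 1 higher in VSEL than in HSC (9.09%). With so few genes, 1 call is near the shares of all genes called higher. Slc25a4, an exchanger of ADP and ATP, read 11.72, 10.93 and 10.75 in HSC and 13.45 to 13.64 in ESC (-2.41 ± 0.40, adjusted p = 0.00818). Atpif1, which inhibits ATP synthase when it runs in reverse, was higher in VSEL than in HSC by 1.48 ± 0.38 (adjusted p = 0.0443). Of 21 regulators and genes of mitochondrial DNA expression, 7 were called lower in VSEL than in ESC (33.3%) and 3 lower in VSEL than in HSC (14.3%), and 1 was lower (4.76%) and 2 higher (9.52%) in HSC than in ESC. The share lower in VSEL than in HSC was near the background. Tfam, which packages mitochondrial DNA and starts its transcription, read 8.04 and 7.80 in VSEL, 10.01, 9.66 and 8.43 in HSC and 10.05 to 11.22 in ESC, and was 6.85-fold lower in VSEL than in ESC (log2 -2.78 ± 0.54, adjusted p = 0.0202). Gabpb1, a subunit of the ETS factor GABP, was at or under background in VSEL and at least 2.57-fold lower there than in HSC (measured means 5.52 and 7.74, adjusted p = 0.0415).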

How the data were processed

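Expression was measured on 9 Affymetrix mouse arrays, and the authors deposited log2 values per probe set, for which the submitters' processing notes name Partek 6.5 and RMA without settings. RMA draws low signals together, so ratios near background are understated. No read depth applies to arrays, and their number limits the precision. Of 45101 probe sets, 64 controls, 932 with several genes and 9211 without annotation were not used, and the symbols of 34741 of 34945 probe sets with 1 gene were taken by gene ID from RefSeq's GRCm38.p6 table. The values were fitted as deposited by two-sided moderated tests in limma 3.58.1 (R 4.3.3, 5 residual degrees of freedom, prior 1.37) over 18193 genes and 8 libraries. The fit was first tried on simulated data in which each gene had the same spread in all groups. That trial does not cover a wider spread in VSEL. SEs of VSEL comparisons assume that VSEL vary as HSC and ESC do. The VSEL libraries varied more: they differed by over 2 log2 units for 26.0% of the brighter genes. Pairs of HSC or ESC libraries did so for 3.28% to 8.58%. The SEs and adjusted p-values of VSEL comparisons can therefore be too small. The members, the gene lists, the tests and the averaging of VSEL arrays 2 and 3 were chosen with earlier results of these data known. Named genes were the 3 check genes, up to 3 called members per complex, comparison and direction with the largest difference, the member of each complex with the widest gap between VSEL libraries, the restricted isoforms with their partners, and up to 2 called genes per related list and comparison. Other members named were chosen after their values were seen. Alternatives covered arrays, scaling, filters, probe sets, the fit and left-out libraries.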

Additional observations from a re-analysis of the deposited data

How the results depend on the processing

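Each comparison was recomputed under 19 alternatives, and the medians under 2 more chosen after seeing the data. Results not given here kept their direction and stayed within 1.5 times the count or 1 SD. Cyclic loess normalization gave 1 higher and 10 lower members in HSC against ESC, where 7.76% and 8.37% of all genes were called higher and lower. The counts were 2 and 3 in VSEL against ESC (6.51% and 5.94% of all genes), and 6 and 5 in VSEL against HSC (6.58% and 6.6%). With cyclic loess the medians were 0.18, 0.15 and 0.40 for complexes I, III and V in VSEL against HSC. They were 0.12, -0.91, -0.64, -0.051 and 0.054 for I to V in VSEL against ESC, and -0.24, -0.094, -0.37, -0.20 and -0.17 in HSC against ESC. Cyclic loess moved the median of all genes in VSEL against HSC from 0.22 to 0.06, and centring on 46 ribosomal protein genes moved it to 0.49. That centring gave 13 higher members in VSEL against HSC, where 19.7% of all genes were called higher. Its medians there were 0.18, 0.079, 0.56 and 0.43 for I, III, IV and V. They were -0.23, -1.04, 0.079 and -0.29 for the same complexes in VSEL against ESC, and -0.56 for I in HSC against ESC. Quantile normalization again gave 0.41 for IV in VSEL against HSC and -0.44 for I in HSC against ESC. With 9 separate arrays, 2 members were higher and 20 lower in VSEL against ESC, where 10.9% and 15.1% of all genes were called. The medians were 0.13 and 0.23 for I and III in VSEL against HSC and -0.57, -1.09 and -0.67 for I, III and V in VSEL against ESC. Same-numbered arrays did not deviate together (r from -0.0888 to 0.155 over 9 pairs, 1 above 0.1), so the replicate number does not pair them. With that number as a replicate block on 9 arrays the medians were the same. Then 0 members were higher and 14 lower in HSC against ESC (6.97% and 9.78% of all genes). The counts were 2 and 14 in VSEL against ESC (6.45% and 12.9%), and 2 and 8 in VSEL against HSC (8.24% and 10.6%). Genes above the median alone gave 0 higher members in VSEL against ESC and 1 against HSC, where 5.9% and 6.6% of these genes were called higher. The median was then -0.35 for IV in HSC against ESC. Fits of 2 groups gave 0 higher and 3 lower in VSEL against HSC (2.79% and 5.93% of all genes) and 0 higher in VSEL against ESC (3.36%). Array weights gave 0 and 4 in VSEL against HSC (2.11% and 4.75%) and 0 and 6 in VSEL against ESC (2.25% and 5.67%). With these weights the median for I was -0.00579 in VSEL against HSC. A spread trend gave 2 higher in VSEL against ESC (7.58%). The mean over probe sets gave 5 lower in VSEL against HSC (8.32%) and 0 higher and 8 lower in VSEL against ESC (5.75% and 9.06%). Its medians were -1.04 and -0.40 for III and V in VSEL against ESC and -0.19 and -0.19 for II and IV in HSC against ESC. Probe sets without a suffix gave 2 higher in VSEL against ESC (6.56% of the genes tested) and 11 lower in HSC against ESC (8.97%). Their medians were 0.13 and -0.43 for I and III in VSEL against HSC and -0.35, -1.10 and -0.26 for I, III and V in VSEL against ESC. With probe sets without a suffix, Cycs turned to a called -0.79 in VSEL against HSC and Uqcrq to a called 0.72 in VSEL against ESC, since another probe set was read. Assembly factors counted with the complexes gave -0.16 and -0.52 for I in VSEL against HSC and ESC, and complex IV without restricted isoforms 0.11, -0.45 and -0.19 in the 3 comparisons.

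Leaving out 1 library gave 0 to 1 higher and 8 to 23 lower members in HSC against ESC, 0 to 2 and 7 to 27 in VSEL against ESC, and 0 to 4 and 6 to 15 in VSEL against HSC. Medians for complexes I to V were also taken with any 1 of the 8 libraries left out. In VSEL against HSC they ran from -0.17 to 0.31, -1.77 to -0.61, -0.57 to 0.018, 0.29 to 0.45 and -0.032 to 0.23. They ran from -0.50 to -0.36, -2.45 to -1.36, -1.52 to -1.22, -0.27 to 0.023 and -0.61 to -0.26 in VSEL against ESC, and for I, III and IV from -0.54 to -0.47, -1.0 to -0.60 and -0.53 to -0.31 in HSC against ESC. With 1 VSEL library left, its spread is assumed to be that of the other groups. The Atp5md difference from HSC was 2.03 without VSEL 1 and -1.70 without VSEL 2+3, and from ESC 1.67 and -2.06. Unless stated, the cause was not tested. With 2 to 3 libraries a group, differences of even about 3 SE could miss the threshold (Cox7a2 in HSC against ESC, -1.01 ± 0.34, adjusted p = 0.11), and values near background understate ratios.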
